A study of Homo sapiens with 6 samples.

Results

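Neurotrophins are secreted growth factors that are made as longer precursors and cut to their mature form. The mature proteins bind TRK receptor tyrosine kinases, each with its own preferred ligands, and all of them also bind NGFR, the p75 neurotrophin receptor, a death-domain receptor of the TNF receptor family. The uncut precursors bind NGFR together with sortilin. In melanoma NGFR is known as a marker of neural crest-like cells, since melanocytes descend from the neural crest.

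The set described here is a list of gene symbols, drawn up with earlier results of these data known: the ligands BDNF, NTF3 and NTF4, the receptors NGFR, NTRK2 and NTRK3, and the sortilin gene SORT1. These 7 genes stand among 23345 gene symbols in the deposited table, and all 7 had a row. RNA was sequenced from A375, an established human melanoma line with an activating BRAF mutation, grown in DMEM with serum. The control cells had received a GFP lentivirus (3 libraries) and the others a lentivirus for murine BMI1, a core component of the Polycomb complex PRC1, which represses genes through chromatin (3 libraries), and both groups were thus infected and expressed a transgene. The model is a single established line in culture, and the labels do not say whether replicates were separate infections or cultures, so p-values measure the spread between these libraries, which may be technical.

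The libraries held between 20221432 and 30388937 estimated counts. GFP replicate 1 lay apart on the second principal component, at 26.0, against -12.4 and -12.2 for GFP replicates 2 and 3. The BMI1 row rose from 89.4 ± 6.87 to 515 ± 8.51 CPM (read counts rescaled so that libraries of unequal depth compare, SD, n = 3), and may hold transgene reads, since the transgene is of mouse sequence. Among 9 melanocytic markers, 6 could be tested, 1 rose and 0 fell, and their levels differed widely. In GFP cells SOX10 was at 647, S100A1 at 71.5, S100B at 49.8 and MITF at 33.7 CPM. MLANA, PMEL and TYRP1 were low there, at 0.704, 0.534 and 0.463 CPM, and the pigment genes TYR and DCT were under 0.1 CPM in both groups. SOX10 and S100B also stand in the neural crest-like list below, so they are not particular to the melanocytic markers. Of 10 neuronal markers, 6 could be tested, 0 rose and 1 fell, and their levels differed widely: NEFL, the one that fell, was at 21.4 and 15.0 CPM (GFP mean first, then BMI1) and SNAP25 at 7.29 and 7.81 CPM, while ELAVL3 was near 0 (0.0584 and 0.0602 CPM). Of 7 Schwann cell markers, 4 could be tested, 0 rose and 1 fell, with CDH19 at 42.9 and 39.5 CPM, while MBP was at 0.0425 and 0.0301 CPM. Of 10 fibroblast markers, 7 could be tested, 5 rose and 0 fell, and their summed level ran from 187 to 201 CPM in GFP and from 255 to 279 CPM in BMI1 libraries. Most of that sum was PRRX1 (159 and 211 CPM), and COL1A1 (2.88 and 7.69 CPM), COL1A2, PDGFRA (5.56 and 12.1 CPM) and LUM rose as well, while COL3A1 was at 0.112 and 0.0866 CPM. Beside these marker counts, 17.1% of all tested genes rose and 9.32% fell, and the marker lists are short, so the counts are a description. The part of the fibroblast markers in the results below was not tested.

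The ligand gene NTF4 and the receptor gene NTRK3 rose in the BMI1 cells, and the start regions of these genes are shown first because they are the members that moved, with that of SORT1 as a gene that did not pass. Each window runs from 250 bases before to 50 bases after an annotated start (RefSeq, GRCh38.p14), and capitals mark the motif GGGCGG or its reverse CCGCCC, known as a GC box.
NTF4, chr19:49064769-49065068, minus strand: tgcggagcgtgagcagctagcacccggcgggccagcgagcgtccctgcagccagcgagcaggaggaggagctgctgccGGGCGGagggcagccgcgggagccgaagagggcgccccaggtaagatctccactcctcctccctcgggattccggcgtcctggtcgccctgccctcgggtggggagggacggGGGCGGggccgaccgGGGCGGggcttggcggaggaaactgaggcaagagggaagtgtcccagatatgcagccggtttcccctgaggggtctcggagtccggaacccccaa
NTRK3, chr15:88256690-88256989, minus strand: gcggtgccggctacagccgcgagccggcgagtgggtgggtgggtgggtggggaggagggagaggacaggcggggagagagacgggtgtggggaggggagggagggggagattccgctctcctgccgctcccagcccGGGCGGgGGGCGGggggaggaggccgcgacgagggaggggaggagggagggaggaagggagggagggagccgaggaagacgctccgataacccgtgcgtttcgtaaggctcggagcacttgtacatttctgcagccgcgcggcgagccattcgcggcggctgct
SORT1, chr1:109397869-109398168, minus strand: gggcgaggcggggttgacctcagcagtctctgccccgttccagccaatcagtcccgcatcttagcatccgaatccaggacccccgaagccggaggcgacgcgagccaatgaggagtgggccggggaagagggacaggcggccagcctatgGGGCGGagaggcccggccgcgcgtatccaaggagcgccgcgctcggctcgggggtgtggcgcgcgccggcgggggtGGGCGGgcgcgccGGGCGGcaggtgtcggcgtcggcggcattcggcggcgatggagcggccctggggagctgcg

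The NTF4 window held 27 CpG dinucleotides, that of NTRK3 30 and the SORT1 window shown 41, against a median of 14 over 35116 RefSeq windows of the same length. GC boxes numbered 3, 2 and 3 in the same order. A second annotated SORT1 start, whose window is not shown, had 3 CpG dinucleotides and 0 GC boxes. Counting all annotated starts, 6 of the 7 genes had 15 windows, of which 9 held GGGCGG on either strand (60%), against 44.95% of all windows. The cyclic AMP response element TGACGTCA was in 0 of the 15 windows and in 1.85% of all windows. Only this exact sequence was searched, so variants of the element were not counted. The E-box CACGTG was in 1 of the 15, a BDNF window, and in 7.26% of all windows. BDNF had 5 windows, NTRK2 had 4, and NTF3 and SORT1 had 2 each. The counts per gene do not say which start was used.

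Of the 7 genes, 5 passed the filter on low counts and could be tested. NTF4 and NTRK3 rose, 0 fell, and BDNF, NGFR and SORT1 did not pass (edgeR's quasi-likelihood test, Benjamini-Hochberg adjustment over 15079 genes, threshold 0.05). In this comparison 26.4% of all tested genes changed, 17.1% rising and 9.32% falling, and 4.93% rose by at least 1 on the log2 scale as both of these did. The count of 2 among 5 is a description, since the filter itself chose which genes could be tested. NTF3 and NTRK2 were below the filter.

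**Figure D1:**
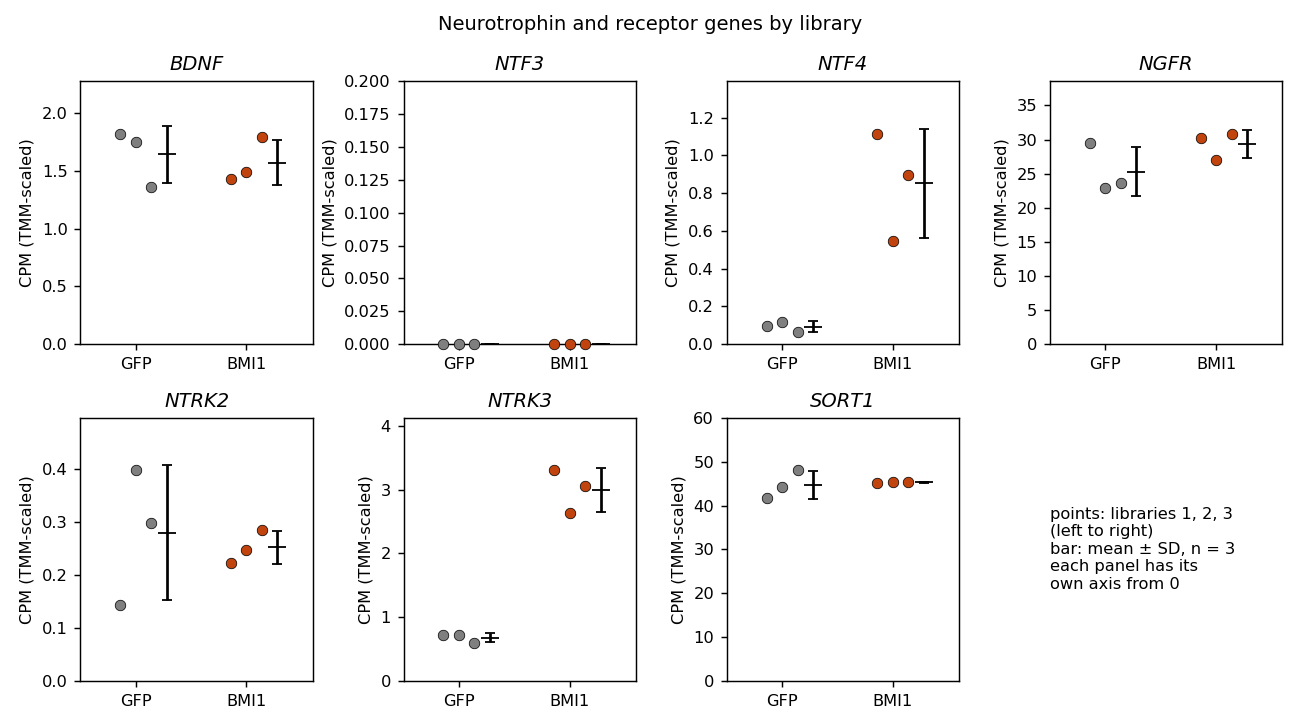
Level of each gene in CPM (vertical axis, from 0, a separate scale per panel) in the GFP and BMI1 libraries. Points are libraries and bars the mean ± SD of 3; NTF4 and NTRK3 have all BMI1 points above all GFP points, while the groups overlap for BDNF, NGFR, NTRK2 and SORT1, and NTF3 is at 0.

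Among the ligands, NTF4 encodes neurotrophin-4, a ligand of the TRKB receptor. Its row held 2, 3 and 2 counts in GFP replicates 1, 2 and 3 and 25, 11 and 21.93 estimated counts in BMI1 replicates 1, 2 and 3. On the CPM scale these are 0.0958, 0.119 and 0.0663 in GFP and 1.12, 0.546 and 0.896 in BMI1 libraries. Each BMI1 library was above each GFP library, and the groups did not overlap, in either direction, for 40.1% of all tested genes. BMI1 replicate 2 was the lowest of its group. The log2 fold change was 3.15 (SE 0.43, 95% interval 2.21 to 4.10, adjusted p = 0.000152 by edgeR), an 8.90-fold rise. Taken from the summed counts alone, 58 against 7, the ratio was 9.40 with an exact counting interval of 4.29 to 24.4, which covers counting error only.

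NTF4 met the count filter through the BMI1 libraries alone, 3 of which and 0 of the GFP libraries reached the 0.427 CPM that the filter asks for, so a gene with its pattern could hardly enter the test without a difference. Under the stricter filter, 1 CPM or more in 3 libraries, it was not tested. The NTF4 locus on chromosome 19 lies near the pseudogenes NTF6A, NTF6G and NTF6B, and the share of reads that such copies exchange with NTF4 was not measured, so this row is uncertain in that respect.

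BDNF encodes brain-derived neurotrophic factor, the other main TRKB ligand, and did not pass. It was at 1.82, 1.75 and 1.36 CPM across GFP replicates 1, 2 and 3, and BMI1 replicates 1, 2 and 3 gave 1.43, 1.49 and 1.79 CPM. The groups overlapped. The log2 fold change was -0.05 (SE 0.20, 95% interval -0.49 to 0.39, adjusted p = 0.891 by edgeR), so a change of either sign within that interval is not excluded. BDNF-AS1, an antisense gene at the same locus that is named here outside the rule, had 6.39 counts over the GFP and 20.02 over the BMI1 libraries and was below the filter. Whether the libraries kept strand is not given in the sources used here, so reads shared by BDNF and its antisense partner cannot be told apart.

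NTF3 encodes neurotrophin-3, the preferred ligand of the TRKC receptor. It had 0 counts in each of the 6 libraries. With 0 counts seen, as many as 3 are still possible, or 0.0994 CPM in the deepest library and 0.149 CPM in the shallowest.

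Among the receptors, NTRK3 encodes TRKC. It was at 0.719, 0.715 and 0.597 CPM across GFP replicates 1, 2 and 3, and BMI1 replicates 1, 2 and 3 gave 3.30, 2.63 and 3.05 CPM. The groups did not overlap, and the spread within each was small beside the gap between them. The log2 fold change was 2.15 (SE 0.20, 95% interval 1.71 to 2.59, adjusted p = 5.72e-06 by edgeR), a 4.44-fold rise from 51 to 201.81 estimated counts. All 6 libraries were above the level that the count filter asks for. TRKC exists in a kinase form and in truncated forms without the kinase, and the table sums them.

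NTRK2 encodes TRKB, the receptor of BDNF and neurotrophin-4, and was barely detected. It had 3, 10 and 9 counts in GFP replicates 1, 2 and 3 and 5, 5 and 7 counts in BMI1 replicates 1, 2 and 3. The groups overlapped, with the lowest and the highest library both among the GFP libraries. With no filter on low counts the log2 fold change was -0.18 (SE 0.49, 95% interval -1.22 to 0.85, adjusted p = 0.836 by edgeR), so a change of either sign within that interval is not excluded.

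NGFR stood at 29.4, 22.9 and 23.6 CPM across GFP replicates 1, 2 and 3, and BMI1 replicates 1, 2 and 3 gave 30.2, 27.0 and 30.9 CPM. The groups overlapped through GFP replicate 1, which was above BMI1 replicate 2. The log2 fold change was 0.22 (SE 0.09, 95% interval 0.03 to 0.42, adjusted p = 0.0915 by edgeR), so NGFR did not pass after adjustment. Without GFP replicate 1 it was 0.34 (adjusted p = 0.000872 by edgeR), and with any other single library left out it did not pass. After a per-library correction for GC content, which is 64.9% for NGFR and 49.7% in the median tested gene, it was 0.09 (adjusted p = 0.193 by edgeR).

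SORT1 encodes sortilin, a sorting receptor that pairs with NGFR on the cell surface and also steers neurotrophin precursors inside the cell. It was at 41.8, 44.3 and 48.1 CPM across GFP replicates 1, 2 and 3, and BMI1 replicates 1, 2 and 3 gave 45.1, 45.4 and 45.4 CPM. The BMI1 libraries lay within the range of the GFP libraries. The log2 fold change was 0.02 (SE 0.06, 95% interval -0.12 to 0.15, adjusted p = 0.872 by edgeR), the narrowest interval among the 5 tested genes.

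**Figure D2:**
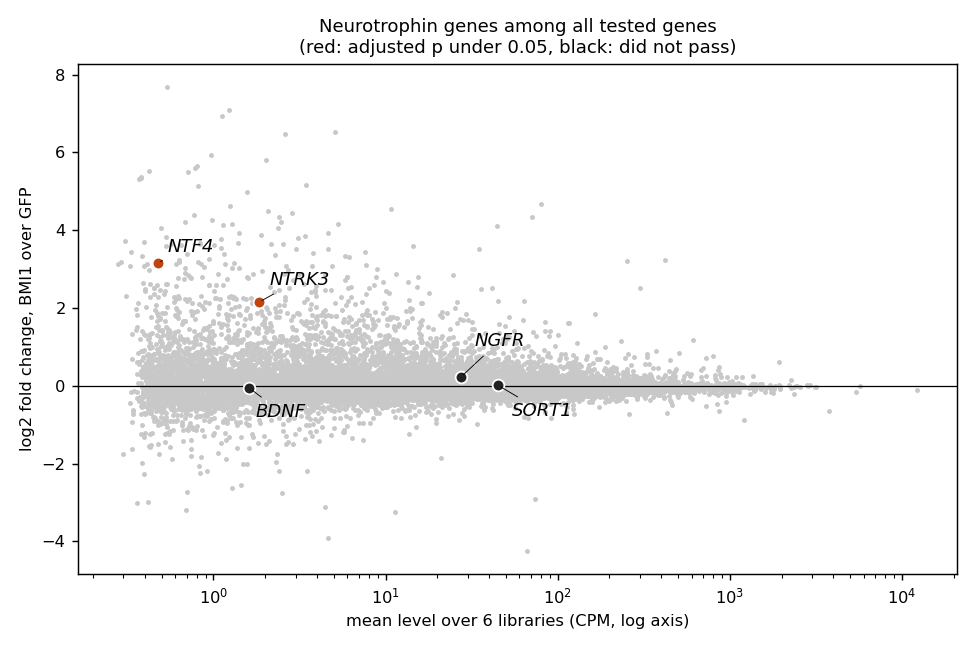
Mean level over 6 libraries in CPM (horizontal, log axis) against the log2 fold change of BMI1 over GFP (vertical) for the 15079 tested genes in grey. NTF4 and NTRK3 (red) are low-level genes with changes of 3.15 and 2.15, while NGFR and SORT1 (black), at higher CPM, lie near 0, at 0.22 and 0.02, and BDNF at -0.05.

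Both genes that rose had low CPM. Mean CPM, which reflects the reads behind a test and not the level per length, put NTF4 at percentile 1.90 of the tested genes and NTRK3 at percentile 14.6, with BDNF at 13.4, NGFR at 52.3 and SORT1 at 65.3. By log2 fold change NTF4 ranked 76 and NTRK3 ranked 204 from the top of 15079 genes. Of the 3638 tested genes with a mean under 5 CPM, 20.4% rose.

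The levels of the 7 genes were put in order per length, as CPM per kilobase of the median annotated protein-coding transcript. In GFP cells the order of levels was NGFR (9.63 ± 1.37), SORT1 (6.38 ± 0.451), BDNF (0.409 ± 0.0619), NTRK3 (0.230 ± 0.0237), NTF4 (0.101 ± 0.0285), NTRK2 (0.0407 ± 0.0186) and NTF3 at 0 (SD, n = 3). In these levels no neighbouring pair of the 7 genes overlapped between libraries. The order of NTF4 and NTRK2 is uncertain, as they had 7 and 22 counts over the GFP libraries. It also rests on the length, since CPM alone put NTRK2 (0.280) above NTF4 (0.0938) in GFP cells. In BMI1 cells NGFR (11.2 ± 0.793) and SORT1 (6.46 ± 0.0215) kept the first places, followed by NTRK3 (1.02 ± 0.116), NTF4 (0.914 ± 0.308), BDNF (0.391 ± 0.0485) and NTRK2 (0.0366 ± 0.00453). NTRK3 and NTF4 overlapped there and do not differ beyond their spread. The length is that of annotated forms, and the forms present in these cells were not measured.

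By Pearson's r of log2 CPM over the 6 libraries, the genes most like NGFR among 13714 with a mean of at least 1 CPM were SAMD1 (0.996), SCARB1 (0.996) and PDZD7 (0.996). Those most like NTRK3 were CRABP2 (0.999), CPNE2 (0.999) and KIAA1161 (0.999). The libraries share depth and group, and 1258 genes had r above 0.95 with NTRK3 against 149 with NGFR, so these names are a description only.

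Of 7 listed relatives of sortilin and co-receptors of NGFR at the cell surface, 6 could be tested, 4 rose and 1 fell, with a median log2 fold change of 0.87. Over all tested genes 17.1% rose and 9.32% fell, and the median was -0.01. The list is short and was drawn up with earlier results known, so its count is a description. SORCS2, a sortilin relative that acts with NGFR as a receptor for the BDNF precursor in mouse neurons, stood at 3.83, 3.30 and 3.08 CPM across the GFP libraries, and the BMI1 libraries gave 16.8, 17.6 and 18.5 CPM. The groups did not overlap. The log2 fold change was 2.38 (SE 0.10, adjusted p = 5.36e-09 by edgeR).

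LINGO1 and RTN4R encode a leucine-rich repeat protein and the Nogo receptor, which join NGFR in a complex that restrains axon growth. LINGO1 stood at 1.82, 1.43 and 1.36 CPM across the GFP libraries, and the BMI1 libraries gave 10.7, 9.37 and 11.4 CPM, a log2 fold change of 2.79 (SE 0.14, adjusted p = 2.97e-08 by edgeR). RTN4R rose from 2.24 ± 0.343 to 4.27 ± 0.499 CPM (log2 fold change 0.92, adjusted p = 0.00108 by edgeR). SORCS1, another sortilin relative and the most abundant of those that rose, went from 111 ± 4.09 to 180 ± 4.43 CPM (log2 fold change 0.70). The fall was in TNFRSF19, also called TROY, a TNF receptor family member that can take the place of NGFR in the Nogo receptor complex, with a log2 fold change of -0.24 (adjusted p = 0.00396 by edgeR). It is named here outside the rule, as the fall in this list. SORL1 did not pass and SORCS3 had 0 counts.

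Of 14 listed genes for the cutting and sorting of neurotrophin precursors, 9 could be tested, 6 rose and 1 fell, with a median log2 fold change of 0.81, beside the same shares over all genes. PCSK6, a furin-like proprotein convertase also called PACE4, rose from 2.63 ± 0.262 to 16.6 ± 1.09 CPM (log2 fold change 2.67, SE 0.11, adjusted p = 3.90e-09 by edgeR). PCSK5, a related convertase, had a log2 fold change of 1.40. CPE, carboxypeptidase E, which sorts the BDNF precursor into the regulated secretory pathway in mouse neurons, rose from 25.3 ± 0.637 to 73.4 ± 0.641 CPM (log2 fold change 1.53). FURIN itself, the ubiquitous convertase, had 125 and 137 CPM in the 2 groups and did not pass (adjusted p = 0.161 by edgeR).

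The plasmin arm of extracellular cleavage was split. PLAT, tissue plasminogen activator, rose from 76.0 ± 5.11 to 133 ± 1.82 CPM (log2 fold change 0.81), and SERPINI1, neuroserpin, an inhibitor of that enzyme, fell from 1.63 ± 0.138 to 0.705 ± 0.0775 CPM (log2 fold change -1.21, adjusted p = 0.00125 by edgeR). PLG, the plasminogen gene, was below the filter in these cells, at 0.0464 and 0.0797 CPM.

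**Figure D3:**
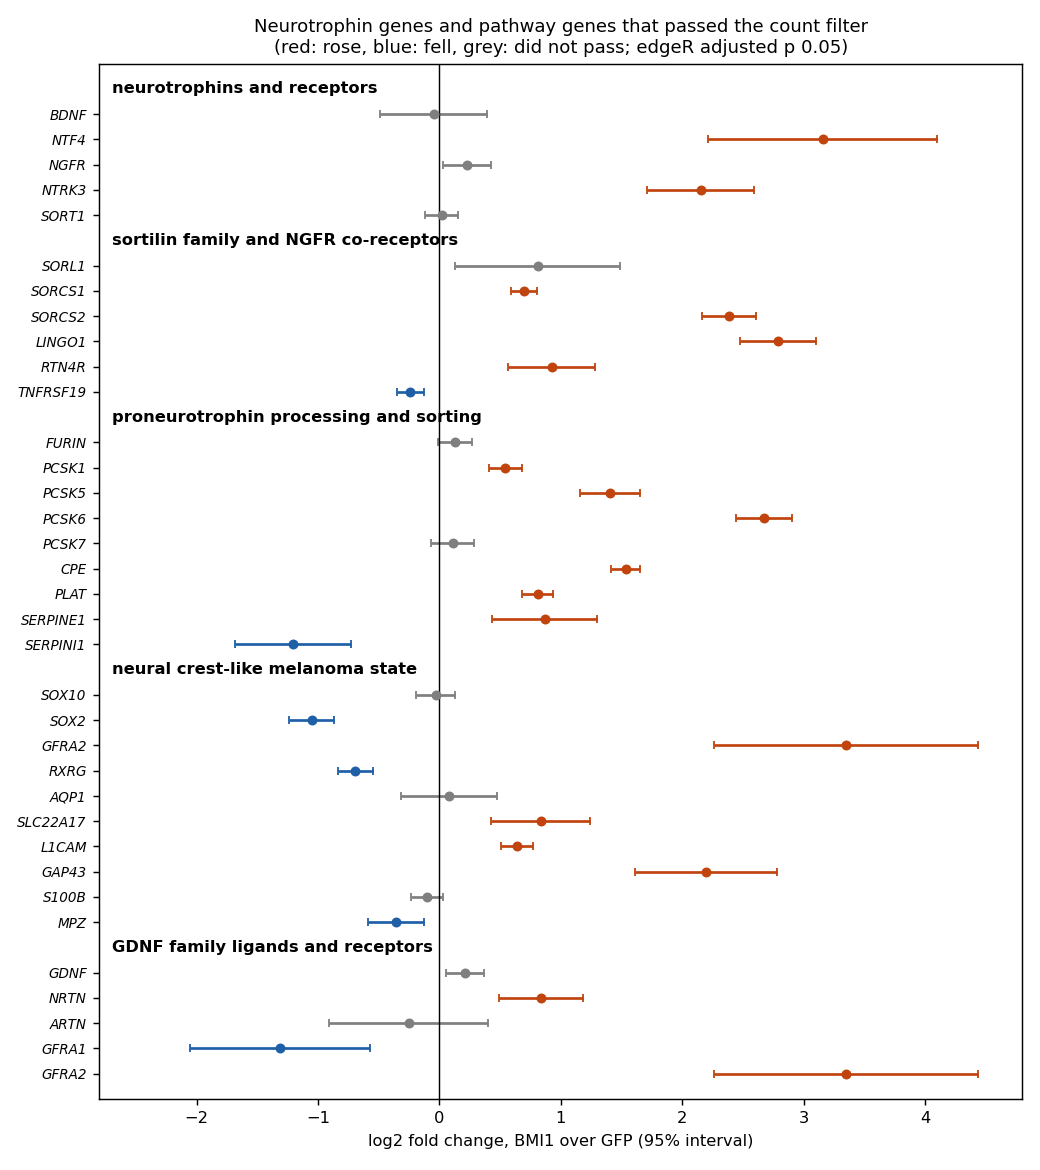
Log2 fold change of BMI1 over GFP with its 95% interval (horizontal) for the tested neurotrophin genes and for 4 lists of related genes (rows). Red rose, blue fell and grey did not pass; GFRA2 stands in 2 lists. SORCS2, LINGO1, PCSK6 and CPE lie between 1.53 and 2.79, while NGFR and SORT1 lie close to 0.

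Among genes that act on or below the receptors, the share that changed was close to the 26.4% of all tested genes, so these counts are no result about the lists. Of 8 genes for shedding and gamma-secretase cleavage of the receptors, 2 rose and 0 fell: ADAM10, a sheddase, had a log2 fold change of 0.23 and APH1B, a gamma-secretase subunit, 0.46. Of 14 NGFR adaptors, 1 rose and 3 fell. MAGED1, an NGFR-binding MAGE protein also called NRAGE, had a log2 fold change of 0.20, while TRAF4 and SQSTM1, which encodes p62, had -0.27 and -0.23. ZNF274, a zinc finger protein, had -0.49. Of 22 tested adaptors and proximal signalling genes of TRK receptors, 4 rose and 2 fell, led by the guanine nucleotide exchange factor RAPGEF1 (0.30) and the adaptor SHC2 (0.88, at 2.17 and 3.99 CPM), with SHC1 at 0.22 and IRS2 at -0.34. GRB2, the adaptor that links receptors to RAS, stood at 141 CPM in both groups. Without GFP replicate 1, 5 NGFR adaptors and 4 TRK adaptors fell, and 4 genes of shedding and gamma-secretase rose and 1 fell. Leaving out GFP replicate 2 or 3, or BMI1 replicate 1 or 3, left 1 fall among the TRK adaptors, and without GFP replicate 3, 2 NGFR adaptors rose. After GC correction 7 NGFR adaptors and 2 genes of shedding and gamma-secretase fell and 2 NGFR adaptors rose. Counts over all tested genes moved as well with the setting, with more falls after GC correction, as given in the last section.

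Genes that neurotrophins induce in neurons were mixed. Of 9 tested, 4 rose and 2 fell, against 17.1% and 9.32% of all tested genes. EGR3, a zinc finger transcription factor, rose from 20.2 ± 1.06 to 49.7 ± 1.27 CPM (log2 fold change 1.30, adjusted p = 8.44e-09 by edgeR), and VGF, which encodes a neurotrophin-inducible secreted peptide precursor, had 0.45. ARC had 0.70. EGR1, an early response factor, had -0.33. Such genes also respond to other activators of the MAPK pathway.

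Genes that mark the neural crest-like melanoma state together with NGFR did not move in 1 direction. Of 13 listed, 11 could be tested, 4 rose and 3 fell, and the median log2 fold change was 0.08. Beside this, 17.1% of all tested genes rose and 9.32% fell. The list was drawn up with earlier results known, so its count is a description. GAP43, a growth cone protein, stood at 0.479, 0.397 and 0.928 CPM across the GFP libraries and at 2.54, 2.93 and 3.14 CPM with BMI1 (log2 fold change 2.20), and the adhesion molecule L1CAM had 0.64. SOX2, a stem cell factor, fell from 20.3 ± 1.45 to 9.76 ± 0.862 CPM (log2 fold change -1.05, adjusted p = 1.68e-06 by edgeR), and RXRG, a retinoid receptor, had -0.69. GFRA2, a receptor for the GDNF family, had 5 counts over the GFP and 48 over the BMI1 libraries (log2 fold change 3.35, SE 0.50, adjusted p = 0.000296 by edgeR), and it met the filter through the BMI1 libraries alone.

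The GDNF family is a separate group of neurotrophic factors that signals through GFRA receptors and the kinase RET. Of 9 listed genes, 5 could be tested, 2 rose and 1 fell, beside 17.1% and 9.32% of all tested genes. Beside GFRA2, the ligand NRTN rose from 2.28 to 4.06 CPM (log2 fold change 0.83), and GFRA1 fell with a log2 fold change of -1.32 (adjusted p = 0.0128 by edgeR). GFRA1 was at 0.527, 0.636 and 0.530 CPM across the GFP libraries and at 0.268, 0.248 and 0.163 CPM with BMI1. It thus met the filter, 0.427 CPM, through the GFP libraries alone, and could hardly enter the test without a difference. The GFRA1 call was lost without GFP replicate 2 (adjusted p = 0.0577 by edgeR), without BMI1 replicate 3 (0.0718) and with the DESeq2 Wald test (adjusted p = 0.108). RET was below the filter, with 0 CPM in GFP cells and 0.045 CPM with BMI1.

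**Figure D4:**
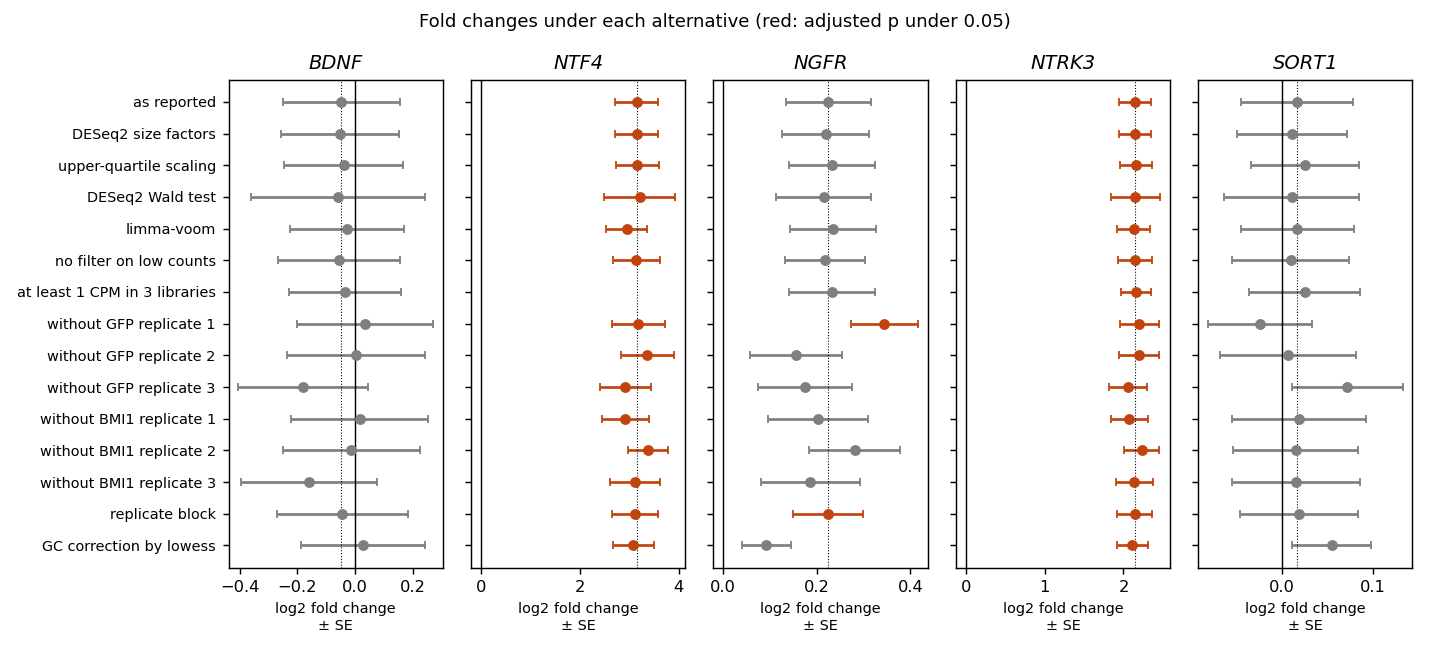
Log2 fold change ± SE (horizontal, a separate scale per panel) of the 5 tested neurotrophin genes under each alternative (rows). Red marks an adjusted p under 0.05. NTF4 stays between 2.92 and 3.38 and NTRK3 between 2.06 and 2.23, and NGFR passes without GFP replicate 1 and with the replicate number as a block.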

How the data were processed

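Values in the deposited table are estimated counts, not normalized, for each gene symbol in 6 libraries. According to the submitters' processing notes, the tools were Bowtie 1.0.1 and RSEM 1.2.12 and the build hg19, with no settings named. The estimated counts were rounded, and edgeR's filterByExpr kept 15079 of 23345 rows. TMM scaling, edgeR's quasi-likelihood test and Benjamini-Hochberg adjustment followed (edgeR 4.0.16, R 4.3.3), with group as the only term. CPM values are TMM-scaled, log2 fold changes are BMI1 over GFP, and the SE is the fold change over the square root of F. Tests were checked on simulated counts.

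Members and lists were chosen with earlier results of these data known. Named were all members and BMI1, in each list up to 4 called genes with the smallest p and those changed by at least 1 on the log2 scale, and the 3 most correlated genes; other genes that the rule names are not reported here. Alternatives were DESeq2 size factors, upper-quartile scaling, the DESeq2 Wald test (1.42.0), limma-voom (limma 3.58.1), other filters, each library left out, the replicate number as a block, and a lowess correction for GC content of GENCODE transcripts (94.6% of tested genes matched). Markers of keratinocytes, leukocytes and endothelium were also read: of 2, 2 and 3 tested genes, 1 of each rose, and 0, 1 and 1 fell. Among all tested genes 17.1% rose and 9.32% fell. Promoter windows are RefSeq's on GRCh38.p14, matched by symbol. Figures used matplotlib 3.10.9.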

Additional observations from a re-analysis of the deposited data

How the results depend on the processing

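NTF4 and NTRK3 kept their direction and passed under each alternative that tested them, 13 and 14 settings, with log2 fold changes from 2.92 to 3.38 and from 2.06 to 2.23. The settings reuse the same counts, and NTF4 met the count filter through the BMI1 libraries alone, so its passing adds no separate support. With at least 1 CPM in 3 libraries NTF4 was not tested, so 1 gene of the set rose in place of 2. Leaving out a library gave 2 to 3 rises and 0 falls. BDNF did not pass in any setting, and its log2 fold change ranged over -0.18 to 0.0351 with a library left out, changing sign without GFP replicates 1 or 2 or BMI1 replicate 1, and was 0.0281 after GC correction. SORT1 did not pass in any setting, and ranged over -0.0239, without GFP replicate 1, to 0.0720. NGFR ranged over 0.16 to 0.34 with a library left out. The cause of these differences was not tested.

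Replicate numbers are shared by both groups, and the labels do not say whether they mark a shared culture or day. The correlation of deviations between libraries with the same number was 0.07, 0.09 and -0.06. Between GFP and BMI1 libraries with unlike numbers it ran from -0.18 to 0.14. With 3 libraries per group these values cannot tell whether the numbers mark a pairing. With the replicate number as a block, NGFR stood at 0.22 on the log2 scale (adjusted p = 0.0391 by edgeR), so that 3 genes of the set rose, while over all genes 2580 rose and 1408 fell, against 2581 and 1405 without it.

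The count of all falls ranged over 711 to 2451 with a library left out and was 2561 after GC correction, and that of rises ran from 2046 to 3193. Among the named genes outside the set, 429 of the recomputed values kept their call and 3, all of GFRA1, lost it. Apart from BMI1, these genes were named because they had passed, and the settings reuse the same counts, so this tally adds no separate support. Depth limits NTF3, NTRK2 and NTF4, which had 0, 39 and 64.93 counts over all libraries.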
